A study of Homo sapiens
Mus musculus and Homo sapiens with 2 samples.

Results

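The genes described here encode the SR splicing factors and the heterogeneous nuclear ribonucleoproteins (hnRNPs). They were chosen by name: all protein-coding genes of the A549 gene annotation whose symbol is SRSF or HNRNP followed by the letters or digits of the family member. This gave 34 gene identifiers of 43167 in the annotation (19128 of them protein-coding), with 12 for SR genes and 22 for hnRNP genes. SRSF10 has 2 identifiers, so the 34 identifiers stand for 33 symbols. Of these, 33 identifiers had at least 100 whole counts in A549, the minimum set for giving a share. The one left out was HNRNPCL1, a relative of HNRNPC, with 4 counts.

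The study used sci-fate, a single-cell RNA assay in which cells take up 4-thiouridine (S4U), a uridine analog, and iodoacetamide (IAA) then alters the S4U so that RNA made during the labelling window can be read apart from older RNA. A549, a human lung adenocarcinoma line, received 100 nM dexamethasone (DEX), a synthetic glucocorticoid, for 0, 2, 4, 6, 8 or 10 h, with ethanol as the vehicle in the control, and 200 µM S4U for the last 2 h in all 6 cultures. HEK293T cells, from human embryonic kidney, and NIH/3T3 mouse fibroblasts were mixed in the other sample and received 200 µM S4U for 6 h, and cells of each line without S4U, without IAA or without both gave the background. A further A549 label gives the DEX dose as 101 nM, and the label of the mixture also lists DEX, which the protocol assigns to A549 only. The cells of 1 treatment time or 1 labelling group are called a culture, and nothing in the labels gives more than 1 for each. P-values therefore measure only the spread among the A549 cultures. Where treated cultures are tested against 0 h, that spread is among the 5 treated ones, so change over treatment time counts as error. Slopes over the treated times use the spread of those 5 around a line.

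SR proteins bind pre-mRNA through RNA recognition motifs, carry a tail rich in alternating arginine and serine, and mostly promote the use of nearby splice sites. hnRNPs coat nascent RNA, often oppose SR proteins at the same exons, and include some of the most abundant nuclear proteins. Many genes of both families are known to control their own level through alternative exons that send the transcript to nonsense-mediated decay (NMD), an RNA surveillance pathway.

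The arginine and serine codons that set the SR family apart can be read in the coding sequences. Shown here are the longest runs of alternating arginine and serine codons, in capitals and with 9 bases on each side, for SRSF2, which holds the longest run of the family (17 codons), and for SRSF4 and SRSF9, which stand at opposite ends of the labelling results among well-counted SR genes (9 and 5 codons). The sequences come from the GENCODE 29 transcripts and run 5′ to 3′.
SRSF2: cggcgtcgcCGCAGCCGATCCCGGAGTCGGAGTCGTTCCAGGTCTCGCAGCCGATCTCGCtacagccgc
SRSF4: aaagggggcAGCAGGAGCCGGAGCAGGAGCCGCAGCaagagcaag
SRSF9: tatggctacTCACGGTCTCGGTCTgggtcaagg
Counting neighbouring arginine and serine codons over the whole coding sequence, the 11 SR symbols held 9 (SRSF9) to 113 (SRSF4) such pairs, with a median of 42. The 22 hnRNP genes held 1 to 12, with a median of 4.

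Several members are close relatives whose RNA was labelled to different degrees, and 1 pair is shown over the first 90 coding bases, with the bases that differ in capitals. HNRNPF and HNRNPH1 both bind guanine-rich RNA and differ at 22 of the 90 bases.
HNRNPF: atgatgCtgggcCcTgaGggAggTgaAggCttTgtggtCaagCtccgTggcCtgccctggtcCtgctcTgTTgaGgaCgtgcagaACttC
HNRNPH1: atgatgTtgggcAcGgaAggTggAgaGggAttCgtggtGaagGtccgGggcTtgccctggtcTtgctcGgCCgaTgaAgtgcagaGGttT
Over the aligned coding bases, HNRNPF and HNRNPH1 were 77.5% identical. HNRNPA1L2 is a copy of HNRNPA1 with its coding sequence in 1 exon, and that pair was 98.4% identical. Its reads could have been assigned to either gene, so the values of HNRNPA1L2 are uncertain.

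The A549 cultures held 1045 to 1446 cells and 28870594 to 43084614 whole counts each, of which 20.3% to 22.6% were called new. The labelled HEK293T cells (913) held 6725232 whole counts and the labelled NIH/3T3 cells (425) 3104845. All 10 A549 markers were detected in every A549 culture (30399 to 35574 CPM summed, whole counts scaled to a library of 1000000), against 41.9 to 45.5 CPM in HEK293T. The HEK293T markers in the annotation summed to 458 to 529 CPM in HEK293T and 193 to 221 CPM in A549, so that list separates the lines less sharply. All 8 NIH/3T3 markers were detected in mouse cells. The 5 DEX check genes rose in sum from 61.5 CPM at 0 h to 842 CPM at 10 h in whole RNA.

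The first question was how much of each splicing factor's RNA had been made during the labelling window. The measure is the new share, the percentage of a gene's whole counts that the authors called new. In A549, most members were labelled less than the typical gene. Their median new share was 13.2%, against 26.9% for the 14122 protein-coding genes measured, and 7 of the 33 lay above that median. The SR genes (median 19.2%, 4 of 12 above) had a higher median than the hnRNP genes (11.5%, 3 of 21 above). Both SRSF10 identifiers are among those 4. New counts depend on how many uridines a read holds and on how new molecules were called, so a share is not a half-life.

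Among the SR genes, SRSF9, a factor closely related to SRSF1, had the lowest share, 5.45% of 55461 counts (95% exact interval 5.26 to 5.64, counting error only). Its share lay between 4.73% and 6.02% in the 6 cultures, with a mean of 5.47% ± 0.474 (SD, n = 6). SRSF1, a founding member of the family that promotes exon inclusion, had a share of 10.5%. SRSF3 and SRSF7, small members that also take part in mRNA export, had 13.1% and 20.3%. SRSF2, which binds exonic enhancers, had 16.3%, SRSF5 16.5% and SRSF6 18.2%.

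The upper end of the SR family was formed by SRSF11 (26.5%), SRSF10 (35.2%), SRSF4 (37.7%) and SRSF12 (38.5%). SRSF4 ranged from 35.9% to 40.3% over the cultures, all above every culture of its relative SRSF6 (16.4% to 20.2%, 69.6% coding identity). SRSF10 and SRSF12 are a related pair with similar shares, but SRSF12 had only 1300 counts and varied from 32.3% to 49.3%. The second SRSF10 identifier had 445 counts and a share of 66.5% (61.9 to 70.9), and the labels do not say how reads were divided between the SRSF10 identifiers.

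The hnRNPs of the A and B group, which bind nascent and spliced mRNA and are abundant, were mostly at the low end. HNRNPA2B1, the most counted member (319659 counts), had a share of 7.05% and HNRNPA1 7.42%. Over the 6 cultures HNRNPA1 stayed between 6.83% and 7.75%. HNRNPA3 (9.84%) and HNRNPAB (10.9%) were close to them. HNRNPA0, whose longest coding transcript has no intron, stood apart at 25.3%, and its cultures (23.1% to 26.6%) lay above all those of HNRNPA1. HNRNPA1L2 had 38.7% of 653 counts.

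Most of the other hnRNPs lay between 8.08% and 18.1%, with HNRNPF (30.2%) and HNRNPLL (33.2%) above them. HNRNPM (8.08%), HNRNPK (8.19%), a binder of cytosine-rich RNA, HNRNPU (8.41%), which also associates with chromatin, HNRNPD (8.46%), a binder of AU-rich elements, and HNRNPL (8.73%), a binder of CA repeats had similar shares. HNRNPUL2 had 9.38%, HNRNPUL1 11.8%, HNRNPR 11.9%, HNRNPH2 13.2%, HNRNPH3 13.7% and HNRNPDL 15.0%. HNRNPC, which binds uridine tracts in introns, had 18.1%.

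Relatives with clearly different labelling stood out in this family. HNRNPF had a share of 30.2% ± 0.909 (SD, n = 6 cultures) and HNRNPH1 11.5% ± 0.720, so every HNRNPF culture lay above the highest HNRNPH1 culture (12.4%). HNRNPH2, 87.1% identical to HNRNPH1 in coding sequence, was near it at 13.2%. HNRNPLL, a factor known for CD45 splicing in lymphocytes, had 33.2% and its relative HNRNPL 8.73%. Of the 13 pairs aligned, the A1 and A2B1 pair differed least, by 1.05 times. The pairs were picked for relatedness and their differences are a description.

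**Figure D1:**
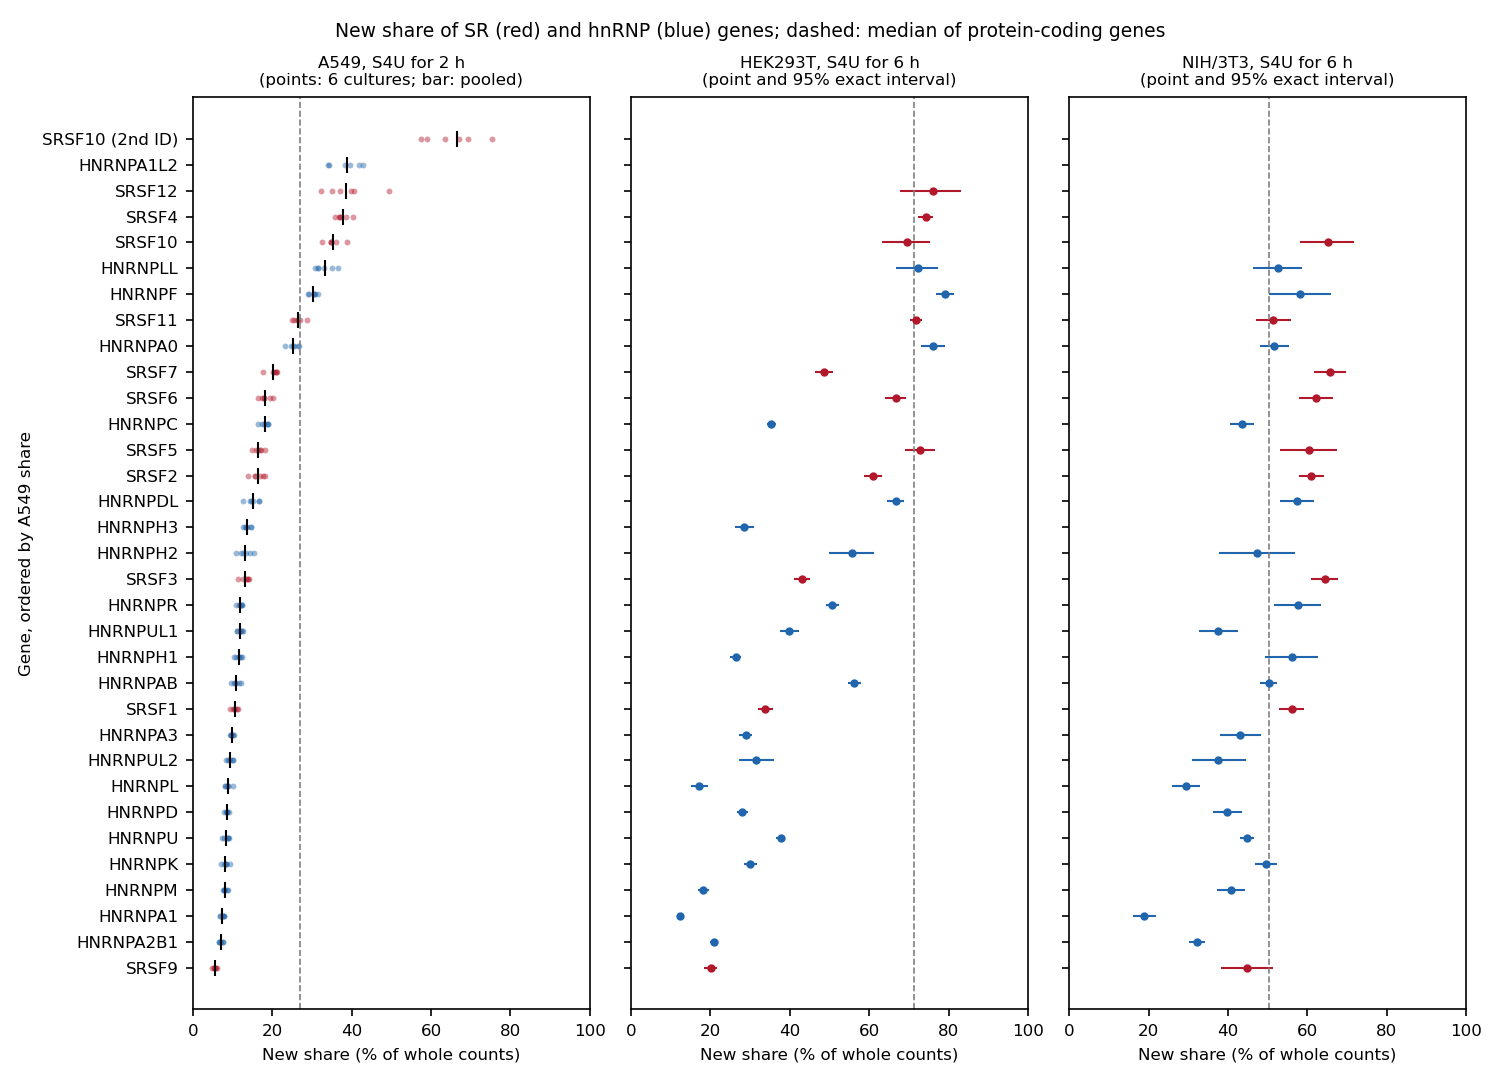
New share (x axis, percent of whole counts called new) of each SR gene (red) and hnRNP gene (blue) in A549, labelled HEK293T and labelled NIH/3T3; A549 points are the 6 cultures with the pooled value as a bar, the others are 1 culture with a 95% exact interval, and the dashed line is the median of protein-coding genes. Most members lie left of the line in both human lines (7 of 33 above it in A549 and 7 of 31 in HEK293T), while in NIH/3T3 14 of 28 lie right of it.

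In HEK293T, labelled for 6 h, the members again lay mostly below the typical gene. The 31 members with at least 100 counts had a median share of 43.1%, against 71.4% for 9073 protein-coding genes, and 7 of 31 lay above that value. SR genes had a median of 66.7% (4 of 11 above) and hnRNP genes 33.4% (3 of 20 above). The background was small: with IAA but no S4U, 1.07% of all member counts were called new. The labelling times differ between the samples, so shares were compared by order only.

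HNRNPF had the highest share in HEK293T, 79.2% (76.8 to 81.5), followed by HNRNPA0 at 76.2% and SRSF12 at 76.2% of 130 counts. SRSF4 had 74.2% and SRSF11 71.8%. The lowest were HNRNPA1 (12.3%), HNRNPL (17.1%), HNRNPM (18.2%), SRSF9 (20.0%) and HNRNPA2B1 (20.8%). Even after 6 h of labelling, then, 12.3% (11.7 to 13.0) of HNRNPA1 counts were called new. HNRNPH1 had 26.4%, with an interval (24.9 to 27.8) far from that of HNRNPF. Across the 31 members, the shares of A549 and HEK293T had a Spearman correlation of 0.870, and across 9004 protein-coding genes 0.840. The points of each line share 1 library.

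Of the 31 members measured in both human lines, 11 moved by at least 5 places in the order. HNRNPH3 moved most, from place 14 from the top in A549 to 24 in HEK293T, and SRSF5 went from 11 to 5. HNRNPU moved from 26 to 18 and HNRNPH1 from 19 to 26. HNRNPAB had 56.3% in HEK293T, above HNRNPC at 35.3%, whereas in A549 HNRNPC (18.1%) lay above HNRNPAB (10.9%). With 1 culture for each labelling group in HEK293T, these changes of order have no replicate check in that line.

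In mouse NIH/3T3 cells, the SR genes stood much higher in the order. Of the 31 mouse genes with a member's symbol, 28 had at least 100 counts, with a median share of 50.9% against 50.4% for 5026 protein-coding genes. Here 8 of 9 SR genes lay above the median of all genes, with a median of 61.1%, and 6 of 19 hnRNP genes, with a median of 44.8%. With IAA but no S4U, 1.26% of member counts were called new. The highest were Srsf7 (65.8%, 61.7 to 69.7), Srsf10 (65.2%), Srsf3 (64.4%), Srsf6 (62.3%) and Srsf2 (61.1%), whose intervals overlap. Hnrnpa1 was again lowest (18.9%, 16.1 to 21.8), followed by Hnrnpl (29.4%) and Hnrnpa2b1 (32.1%).

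Because fewer genes reach 100 counts in the mouse cells, places were also taken among the 4367 genes measured under the same symbol in all 3 lines. The percentile is the percentage of those genes with a lower share. SRSF3 stood at percentile 28.6 in A549, 25.4 in HEK293T and 95.7 in NIH/3T3. SRSF7 stood at 45.4, 30.0 and 97.2, and SRSF1 at 21.4, 18.3 and 71.4. In all, 8 of 9 SR genes were placed higher in NIH/3T3 than in either human line, SRSF11 being the exception (56.6, 54.2 and 53.2). Of all 4367 genes, 38.7% were placed that way. The median place of the 9 SR genes was 36.8 in A549, 41.8 in HEK293T and 88.8 in NIH/3T3. Mouse shares lay close together above the middle. Among the 5026 protein-coding genes measured there, the median was 50.4% and the 90th percentile 61.6%. Small differences in share thus move a mouse gene by many places, and the places carry no interval.

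Of the hnRNP genes, 13 of 19 were placed higher in NIH/3T3 than in either human line, and their median place was 22.4, 19.4 and 34.6. Whether the SR and hnRNP counts differ was not tested. Other splicing genes were also placed higher in NIH/3T3 more often than the 38.7% of all genes: 24 of 43 core spliceosome genes and 19 of 34 other splicing regulators. The mouse cells were far from uniform. HNRNPH1 stood at 24.2, 12.6 and 71.7 and HNRNPR at 25.0, 32.0 and 77.9, while HNRNPUL1 (25.0, 22.9 and 22.6) and HNRNPA2B1 (10.6, 8.15 and 15.5) kept a low place in all lines. In mouse cells Hnrnpf (58.3%, 50.3 to 65.9) and Hnrnph1 (56.2%, 49.5 to 62.8) had overlapping intervals, unlike in both human lines. Species, line and culture cannot be told apart in this comparison, and mouse genes were matched by symbol alone.

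**Figure D2:**
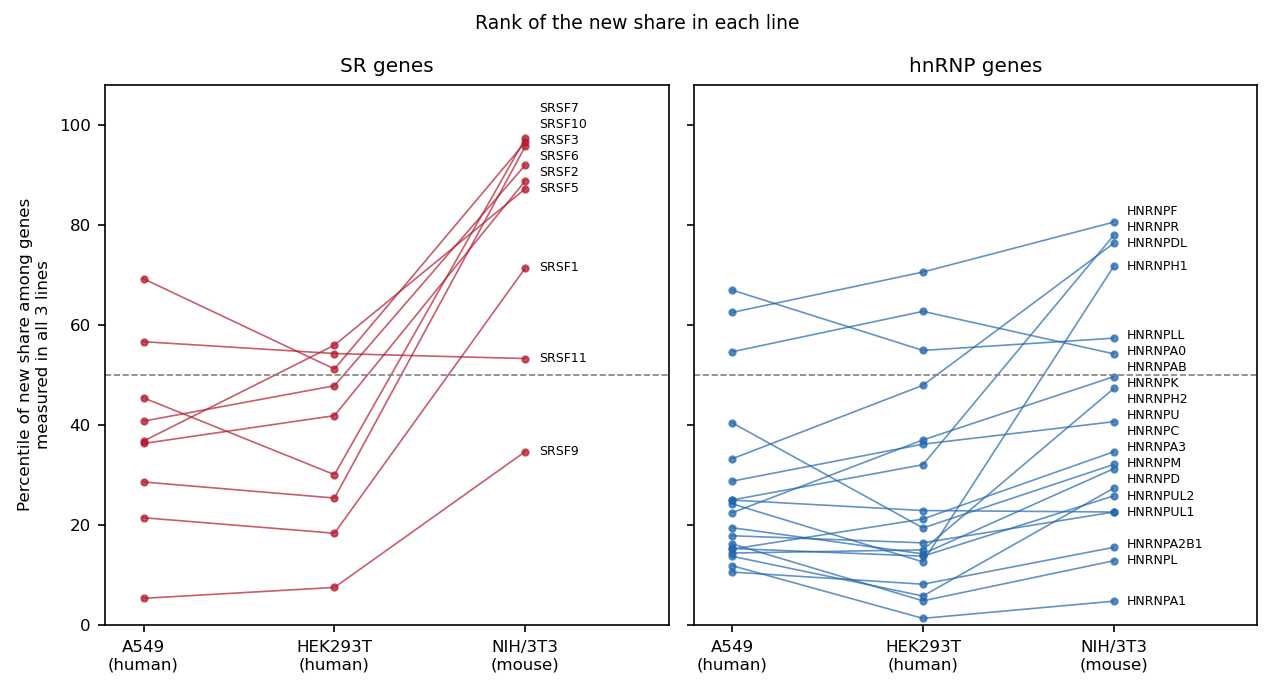
Place of each member's new share (y axis, percentile among 4367 genes measured in all 3 lines) in A549, HEK293T and NIH/3T3, for SR genes (left) and hnRNP genes (right), with 1 line a gene. The SR lines climb towards NIH/3T3 for 8 of 9 genes, while HNRNPA1, HNRNPL and HNRNPA2B1 stay near the bottom; names at the right edge are spread apart so that they can be read.

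The rest of the splicing machinery gives a frame for these values. Core spliceosome genes, which form the snRNPs and their helicases, had medians of 12.7% in A549 (47 of 48 measured), 45.7% in HEK293T (46) and 45.7% in NIH/3T3 (44). In A549 they ran from SNRPB (4.65%) and SNRPD2 (4.80%), parts of the ring shared by the snRNPs, to PRPF38A (35.7%) and PRPF3 (37.6%). Other splicing regulators had medians of 24.1%, 63.7% and 49.8%. Their lowest in A549 were NONO (5.74%) and PCBP2 (7.39%), and their highest CLK1 and CLK4 (both 78.7%), kinases that phosphorylate SR proteins. The hnRNP median thus lay near that of the core spliceosome in A549 and NIH/3T3 and below it in HEK293T. The SR median lay between the lists in A549 and above both in HEK293T and NIH/3T3. None of these differences was tested.

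Features that the choice by name did not use were read from the GENCODE 29 annotation for the 32 measured members it holds. Every one of 11 SR genes there has an annotated transcript of the NMD class, as do 13 of 21 hnRNP genes and 42.6% of protein-coding genes. The motif ATTTA, the core of AU-rich elements, was searched on the sense strand of the 3′ UTR of each gene's longest coding transcript, overlapping matches included. It was found in 100% of the 11 SR genes, 81.0% of hnRNP genes and 72.2% of protein-coding genes. A match is a description, and longer sequences hold more of them. Across members the new share in A549 was nearly unrelated to gene span (Spearman 0.05, n = 32), against 0.33 across 13920 protein-coding genes. Within the SR genes that value was 0.55 (n = 11) and within hnRNP genes -0.11 (n = 21). Genes of 1 library share its depth and are not independent.

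Whole RNA levels were set side by side for the human lines, with the 6 A549 cultures against the 4 labelling groups of HEK293T. Of 33 members, 17 had a HEK293T range wholly above the A549 range and 5 wholly below. Among 11427 protein-coding genes these shares were 54.1% and 20.8%, so the members' counts are near the background. The median log2 ratio was 0.35 for members and 0.47 for all genes, and ratios should be read against that shift. Line, library and depth cannot be told apart here.

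Of the SR genes, 8 of 12 were higher in HEK293T and 0 lower, with a median log2 ratio of 0.56, close to the 0.47 of all genes. Both SRSF10 identifiers are among those 8. Of the hnRNP genes, 9 of 21 were higher and 5 lower, with a median of 0.06. SRSF4 averaged 308 CPM in HEK293T and 75.5 CPM in A549, a 4.08-fold ratio, and SRSF11 averaged 472 and 145 CPM. SRSF10 (31.3 and 7.03 CPM) and SRSF12 (23.9 and 5.98 CPM) were also far higher. HNRNPA1 averaged 1349 CPM in HEK293T and 731 CPM in A549. Lower in HEK293T were HNRNPUL1 (266 against 462 CPM), HNRNPUL2 (77.0 against 124), HNRNPF (203 against 311), HNRNPLL (52.5 against 68.9) and HNRNPA2B1 (1150.3 against 1481).

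The next comparison asked whether the RNA of any splicing factor differed between the 0 h culture and the 5 treated with dexamethasone. No member passed the threshold in whole RNA. With the edgeR quasi-likelihood test and Benjamini-Hochberg adjustment over 22894 genes, 0 of 33 members were called, against a background of 0.878% of all genes. At an unadjusted p under 0.05 there was 1, against 2923 of the 22894 genes. DESeq2 called 0 members, and of 18882 genes 548 higher and 233 lower. The median log2 fold of the members was -0.02, against 0.00 for all genes. In bulk sums of this kind, fewer cells of a state and less RNA per cell cannot be told apart.

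The highest whole-RNA folds belonged to sparsely counted SR genes. SRSF12 had 4.26 CPM at 0 h and 5.80 to 7.03 CPM in the treated cultures, all above it, a log2 fold of 0.59 ± 0.17 (SE) with an edgeR adjusted p of 0.199. The second SRSF10 identifier had 0.37 ± 0.25 and the first 0.27 ± 0.13. The lowest were HNRNPH2 (-0.17 ± 0.09), SRSF7 (-0.16 ± 0.08) and SRSF2 (-0.13 ± 0.09). For these 3 genes the 0 h culture was the highest of the 6. HNRNPH2 had 55.9 CPM there and 45.5 to 52.7 CPM after DEX, and SRSF7 had 207 CPM and 167 to 193 CPM. Genes picked for the highest or lowest folds tend to have an extreme 0 h value, so these places are a description.

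In new RNA the members' log2 folds ran from -0.33 to 0.58, against -0.17 to 0.59 in whole RNA, none past the threshold. The SEs of these folds were 0.081 to 0.34 in new RNA and 0.060 to 0.25 in whole RNA. Of 17507 genes, edgeR called 6.00%, and of the 33 members 0. At an unadjusted p under 0.05 there were 4 members, against 3168 of the 17507 genes. DESeq2 called 0 members, and of 15213 genes 742 higher and 390 lower. SRSF2 came closest: its new RNA was 263 CPM at 0 h and 198, 216, 197, 199 and 197 CPM at 2 to 10 h. The 0 h culture was thus above all 5 treated ones, with a log2 fold of -0.31 ± 0.09 (SE) and an edgeR adjusted p of 0.0791. SRSF2 passed without the 2 h culture, but more of all genes did so too. The spread that edgeR fitted over all genes was smaller there (coefficient of variation 0.0807, against 0.110 with that culture). The side of 0.05 on which SRSF2 falls is thus not a trait of this gene alone. Its own 2 h value was near those at 6 to 10 h.

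HNRNPH2 new RNA was 38.7 CPM at 0 h and 26.2 to 31.7 CPM in treated cultures (log2 fold -0.33 ± 0.14, edgeR adjusted p = 0.247). HNRNPL new RNA was 90.1 CPM at 0 h and 67.8 to 73.6 CPM after DEX (-0.28 ± 0.10, edgeR adjusted p = 0.147). In both genes the 0 h value lay above all treated values, which picking the lowest folds favours. With 1 culture at 0 h, the spread of that value is unknown. The highest folds were those of the second SRSF10 identifier (0.58 ± 0.34), SRSF12 (0.56 ± 0.24) and HNRNPA1L2 (0.33 ± 0.26). The members' median log2 fold in new RNA was -0.07, against 0.01 for all genes.

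The test of a larger change in new than in pre-existing RNA (whole minus new counts) called 0 of 33 members and 0% of 22440 genes by edgeR. None of the members had an unadjusted p under 0.05, against 1216 of the 22440 genes. DESeq2 called none of the members, and of 17223 genes 8 higher and 5 lower. HNRNPL (-0.22 ± 0.12) and SRSF2 (-0.20 ± 0.13) had the lowest log2 differences.

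**Figure D3:**
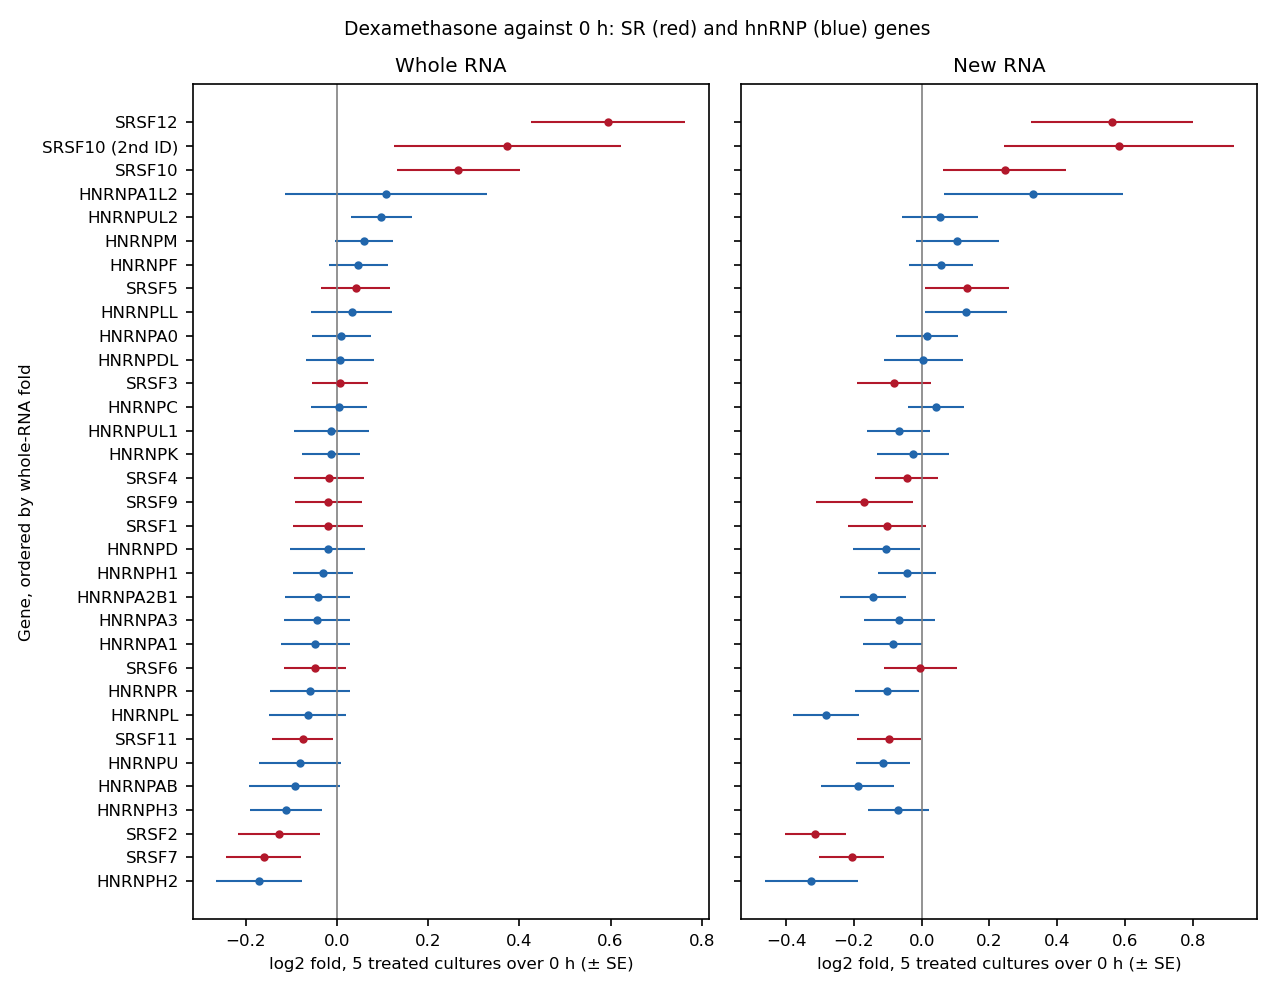
Log2 fold of the 5 treated cultures over the 0 h culture (x axis, point ± SE from edgeR) for each SR gene (red) and hnRNP gene (blue), in whole RNA (left) and new RNA (right), ordered by the whole-RNA fold. SRSF12 and the SRSF10 identifiers stand at the top with wide errors, and SRSF2, HNRNPL and HNRNPH2 have the lowest new-RNA folds; none passed an adjusted p of 0.05.

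Within the treated cultures, 5 hnRNP genes fell in whole RNA from 2 to 10 h of DEX. HNRNPU had 1171, 1119, 1055, 1017 and 1004 CPM at 2, 4, 6, 8 and 10 h, and 1158 CPM at 0 h. HNRNPAB had 492, 468, 421, 425 and 416 CPM, and 483 CPM at 0 h. The level at 10 h was the lowest of the 6 cultures for both. HNRNPR, a factor of mRNA processing and transport, had 464, 427, 411, 408 and 394 CPM, and HNRNPL 188, 181, 181, 172 and 161 CPM. HNRNPD had 409.8 CPM at 2 h and 362 CPM at 10 h.

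As slopes, these were falls per hour in log2 units of -0.03 for HNRNPAB, HNRNPU and HNRNPR and -0.02 for HNRNPL and HNRNPD. Over the 8 h span the fitted change was -15.2% for HNRNPAB, -14.3% for HNRNPU, -13.2% for HNRNPR, -12.5% for HNRNPL and -12.0% for HNRNPD. The edgeR adjusted p-values were 0.0364, 0.0171, 0.0374, 0.0459 and 0.0438 in the same order. No SR gene passed, and no member rose, against 6.10% of all genes called higher. With the 0 h culture included, 4 members fell, beside 1724 of 21671 genes: HNRNPAB, HNRNPU, HNRNPH3 and the SR gene SRSF7. Over the treated times SRSF7 had an edgeR adjusted p of 0.0943, and 0.0220 with 0 h included. In that fit HNRNPL (0.0539), HNRNPR (0.0552) and HNRNPD (0.126) did not pass by edgeR adjusted p. HNRNPLL had the highest slope among well-counted members (14.3% over the span, edgeR adjusted p = 0.0808).

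These 5 of 33 stand beside a background of 6.53% of 21493 genes called lower. Deeply counted genes are called more often, however. Among protein-coding genes with at least 10000 whole counts in the treated cultures, 13.7% of 4234 were called lower, and of the 28 members that deep, 5 (17.9%). The share over all members is therefore near the background of well-counted genes. The 28 also include SR genes, none of them called, so the share among the hnRNP genes alone was higher than 17.9%. That share was not compared with the background. The median log2 slope of those 28 members was -0.014 per hour, against -0.0019 for the 4234 genes. Each call also rested on few cultures. Without the 2 h culture or without the 8 h culture, 0 of the 5 passed, and 1, 3 and 2 members did without the 4, 6 and 10 h cultures. Lower calls over all genes also dropped, from 1404 of 21493 to 809 of 21469 without 2 h and 701 of 21534 without 8 h. They were 1013 of 21486, 1304 of 21058 and 796 of 21066 without the 4, 6 and 10 h cultures. Whether the members lost more of their calls than other genes did was not tested.

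Genes of the cell cycle moved in the same direction. The summed whole RNA of 13 S phase genes was 2722 CPM at 2 h and 1988 CPM at 10 h, and 12 of the 13 fell in the same test. The sum of 14 G2/M genes was 6561 and 5427 CPM, and 9 of 14 fell. Their part in the fall of the hnRNPs was not tested. Of the core spliceosome genes, 7 of 47 fell and 0 rose, with SNRPD1 and SNRNP40 lowest (both -0.03 log2 per hour). PRPF38A and XAB2, the highest of that list, had 0.02 each and did not pass. Of the other regulators, 5 of 39 fell and 1 rose, MBNL1 with 0.06 per hour, while ESRP1 (-0.05) and RBM39 (0.03) did not pass.

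New RNA had no slope past the threshold among the members. EdgeR called 7.70% of 16366 genes and 0 of 33 members. At an unadjusted p under 0.05 there were 4 members, against 3514 of the 16366 genes. DESeq2 called 0 members, and of 12152 genes 408 higher and 456 lower. For the 5 genes that fell in whole RNA, the new-RNA slopes gave fitted changes over 8 h of -14.3% (HNRNPAB), -9.72% (HNRNPR), -8.72% (HNRNPD), -6.34% (HNRNPL) and -0.641% (HNRNPU), with edgeR adjusted p-values from 0.165 to 0.969. Whether the slopes of whole and new RNA differ was not tested.

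**Figure D4:**
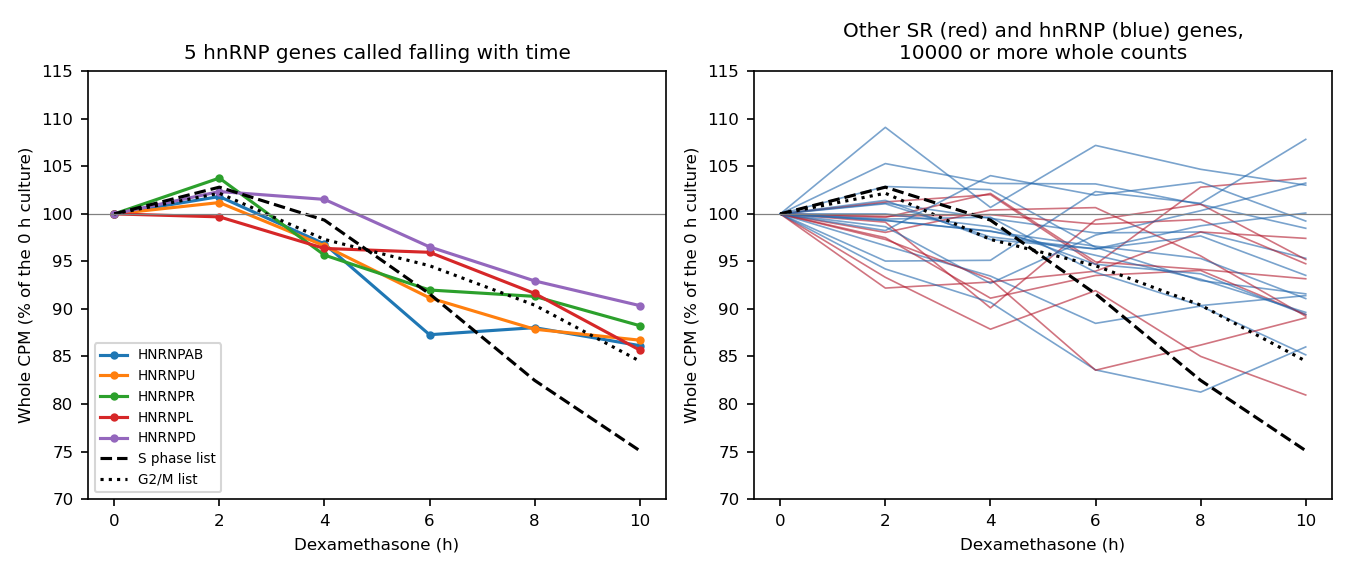
Whole CPM as a percentage of the 0 h culture (y axis, which starts at 70) against hours of DEX (x axis), for the 5 hnRNP genes called falling over the treated times (left) and for the other members with at least 10000 whole counts (right, SR red, hnRNP blue). Black lines are the summed S phase (dashed) and G2/M (dotted) lists; the 5 genes and both lists are lower at 10 h than at 2 h.

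The new share itself differed between cultures in a way that most members shared. It was lowest in the 2 h culture for 23 of 33 members and highest in the 6 h culture for 20 of 33. Among 14118 protein-coding genes, 33.3% were lowest at 2 h and 34.4% highest at 6 h, and the whole libraries had new shares of 20.3% and 22.6% in those cultures. The 14118 genes include sparsely counted ones, in which counting error has more weight in setting the lowest and highest culture. They were not matched to the members in depth. Whether the members differ here from genes counted as deeply was not tested. The SR median was 17.1% at 2 h and 20.7% at 6 h, with 19.6% at 0 h. The hnRNP median was 10.4%, 12.4% and 11.7% at those times. The 4 h culture had the same library new share as the 2 h culture (20.3%), yet its SR median was 19.9% and its hnRNP median 10.9%. At 8 h the library new share was 21.8%, against 20.9% at 0 h, while the SR median was 19.1% and the hnRNP median 12.1%. The library's share and both medians were low at 2 h and high at 6 h. The SR median did not follow the library's share at 4 h or 8 h. The part of the library's share was not tested.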

How the data were processed

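The authors deposited raw counts per gene and cell, for whole RNA and for RNA called newly synthesised, and a cell annotation with the species call, the labelling group and the treatment time. Per the file headers, the annotation also holds the authors' fraction per mixture cell and their doublet score per A549 cell, which were not used. The submitters' processing notes name STAR 2.5.2b, Trim Galore 0.4.1, Picard 1.105, SAMtools 1.3 and the builds hg19 and mm10; the calling of new molecules is not described in the sources used here. No coordinates were used, and GENCODE 29 served only for gene features and coding sequences.

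The members and gene lists were chosen with earlier results of these data known. Counts were summed over cells of each culture, and cells were not used as replicates. New share is new over whole counts with at least 100 whole counts, with exact Clopper-Pearson 95% intervals. Tests used edgeR 4.0.16 in R 4.3.3 (quasi-likelihood, TMM, filterByExpr at a minimum count of 10) on all genes, adjusted by Benjamini-Hochberg at 0.05, with DESeq2 1.42.0 as an alternative. The scripts were tested on simulated data. SEs come from the fold and its F statistic. The 0 h group is 1 culture, assumed to vary like the others, with 4 residual degrees of freedom; the slope over 5 treated times has 3. No doublet caller was run. Mixture cells called as both species (169) or without a labelling group (100) were left out.

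Any member with 100 counts could be named by its share. For the tests, members past the threshold and the 3 highest and 3 lowest folds in whole and in new RNA were named, and of the splicing lists the 2 highest and 2 lowest, of which 1 is not reported here. Other members named beside a test, and the subset of deeply counted genes, were chosen after their values were seen. Immune and endothelial markers summed to at most 10.3 and 1.40 CPM in A549.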

Additional observations from a re-analysis of the deposited data

Results flagged for a closer look

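In 66 checks of the members' new shares and whole levels over the 6 A549 cultures, 2 single cultures lay far from the rest, where chance alone flags about 1 in 20 such groups. The whole level of SRSF3 was 285 CPM in the 10 h culture and 297.6 to 300.8 CPM in the other 5. The new share of SRSF7 was 17.7% in the 2 h culture and 20.2% to 21.3% in the others. The new share of whole libraries was 20.3% at both 2 h and 4 h, and SRSF7 at 4 h had 20.5%.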

How the results depend on the processing

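No paired analysis was possible because each treatment time or labelling group is 1 culture. In the test of treated cultures against 0 h, the count of called members in whole RNA and in new against pre-existing RNA stayed at 0 under every alternative run (DESeq2, RLE size factors, no low-count filter, the middle 80% of cells, and leaving out each treated culture), and in new RNA it was 0 to 1 when a treated culture was left out, SRSF2 passing without the 2 h culture. The slope in whole RNA called 5 members, 3 without the low-count filter and 0 to 3 when a culture was left out; it called 6 with DESeq2 and with RLE size factors (the same 5 and HNRNPUL1). It called 4 in the middle 80% of cells (HNRNPAB, HNRNPD, HNRNPU and HNRNPUL1), so 3 of the 5 passed there. With 0 h included it called 4 (HNRNPAB, HNRNPU, HNRNPH3 and SRSF7), so 2 of the 5 passed. Lower calls over all genes were 1342 of 14476 with DESeq2, 1415 of 21493 with RLE size factors and 1510 of 42475 without the low-count filter. They were 1319 of 20313 in the middle 80% of cells and 1724 of 21671 with 0 h included. Of 35 named folds and slopes, 3 changed sign in 1 alternative each, none of them past the threshold: the slope of XAB2 ran from -0.0062 without the 10 h culture to 0.029 without the 8 h culture, that of ESRP1 0.025 with 0 h included, and the new-RNA slope of HNRNPU 0.00028 without the low-count filter (log2 per hour). The slope in new RNA stayed at 0. The median new share in A549 (13.2%) moved by less than the spread between cultures. In HEK293T (43.1%) it was 36.5% over members with at least 1000 counts, 43.6% in the middle 80% of cells and 41.8% after subtracting the IAA-only share. In NIH/3T3 (50.9%) it was 47.2% over the 6 members with 1000 counts and 49.4% after subtraction. The mouse values rest on 110 to 3197 counts a gene, and intervals cover counting error only.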
